A study of Homo sapiens with 6 samples.

Results

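The genes described here are 9 that act in cell-cycle arrest by p53 and RB, of which MDM2, CCND1 and CCND2 work against it. They are CDKN1A, CDKN2A, CDKN2B, CDKN1B, MDM2, RB1, CCND1, CCND2 and GADD45A, out of 20033 protein-coding genes in the RefSeq table for GRCh38. They were chosen by name, and the window of each gene is its gene body with 50 kb added on either side. CDKN2A and CDKN2B are neighbours on chromosome 9 and their windows overlap, so their shared peaks were counted once in all totals. The 9 windows together span 1.13 Mb.

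The peaks come from CUT&Tag, in which an antibody guides a transposase to a chromatin protein so that the DNA beside it can be sequenced. Each of 6 libraries gave 1 peak list, from IMR90, a line of human fetal lung fibroblasts with a limited number of divisions. The labels of all 6 libraries begin with the tag I79, which they do not explain. For the insulator protein CTCF, the control cells are labelled p21, the ICM cells p16 with 6 days of treatment, and the senescent cells p34. For SMC1, a subunit of the cohesin ring, the labels read p16 for control, p16 for ICM with no duration given, and p34 for senescent. ICM is inflachromene, a small molecule that binds the chromatin proteins HMGB1 and HMGB2. The p34 labels name no treatment and were taken as the high-passage senescent cells of the series design, and the control and ICM libraries for CTCF do not share a p number, so treatment and passage cannot be told apart there. With 1 library per group there was no replicate check, and every difference below is between those libraries.

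CDKN1A, CDKN2A, CDKN2B and CDKN1B encode the cyclin-dependent kinase inhibitors p21, p16, p15 and p27, which keep RB unphosphorylated so that E2F factors stay repressed. CDKN2A also encodes p14ARF, which is not such an inhibitor. p53 activates CDKN1A, GADD45A and MDM2, and MDM2 in turn marks p53 for destruction, while p14ARF restrains MDM2. CCND1 and CCND2 encode the D-type cyclins whose kinases phosphorylate RB. In fibroblasts, p21 and p16 are the classical effectors of the stable arrest of senescence, and cohesin held at CTCF-bound sites anchors many chromatin loops.

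The lists held 4673 control, 6728 ICM and 8577 senescent CTCF peaks and 14883, 17809 and 12927 SMC1 peaks, mitochondrial peaks left out. Each peak carries a total signal and a highest signal. The study describes a calibration by E. coli reads, but it is not stated whether these whole-number signals carry it, and the depth of each library is not in the lists. So signal was not compared between lists, and a peak was placed by its percentile within its own list, where 100 is the strongest. A peak missing from a list fell below that list's cut-off, which does not show that the protein was absent. The smallest highest signal admitted was 10, 13 and 7 for CTCF and 4, 4 and 3 for SMC1 (control, ICM, senescent).

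More peaks of both proteins were listed in the windows in ICM and senescent cells than in control, although for CTCF this was lost in senescent cells, and in ICM cells under 1 of 2 settings, once the lists had equal length. The windows held 3 CTCF peaks in control, 6 in ICM and 8 in senescent cells, and 13, 20 and 23 SMC1 peaks. Per Mb of window this came to 2.66, 5.33 and 7.10 CTCF peaks, beside 2.41, 3.43 and 4.30 over the windows of all protein-coding genes. For SMC1 it came to 11.5, 17.8 and 20.4 per Mb, beside 7.28, 8.44 and 6.25. With the lists of an antibody cut to the length of the shortest by total signal, the windows held 3, 6 and 3 CTCF peaks and 11, 16 and 23 SMC1 peaks. By highest signal they held 3, 3 and 2 CTCF peaks and 11, 15 and 23 SMC1 peaks. The senescent SMC1 list was thus the shortest of the 3 and the densest in these windows.

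A CTCF peak lay in the window of 4 of the 9 genes in control, 5 in ICM and 7 in senescent cells. Over all protein-coding genes the shares were 41.7%, 51.7% and 55.7%. An SMC1 peak lay in the window of 8, 7 and 7 of the 9 genes, beside 68.3%, 69.0% and 63.1% of all genes. GADD45A and RB1 had no CTCF peak in any list, and the remaining genes had one in at least 1 list. The crowding sat at a few genes: the senescent SMC1 list held 6 peaks in the CDKN1A window and 6 in the CCND1 window, as many as 4.96% of all genes reach, and 5 at GADD45A (8.64% of genes). The median over all genes was 1. CDKN1B and RB1 had no SMC1 peak in senescent cells.

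**Figure D1:**
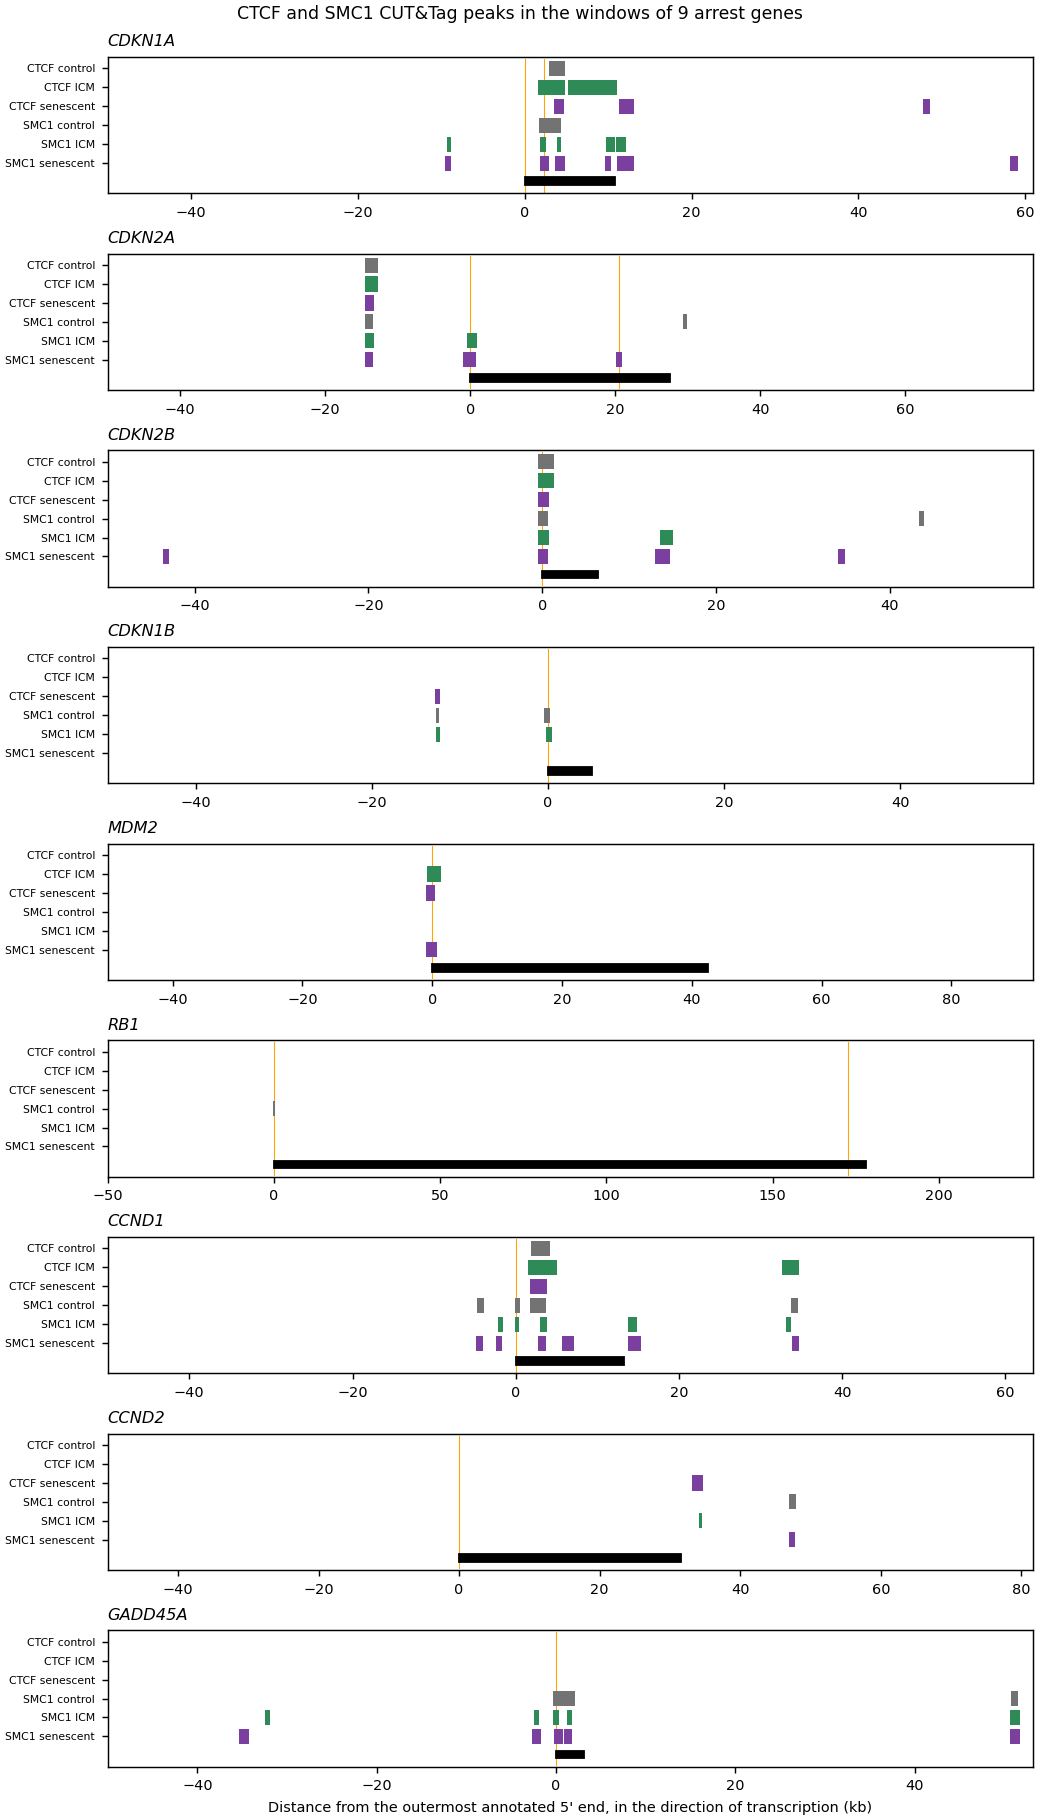
Peaks in the window of each gene, drawn to scale against distance in kb from the outermost annotated 5′ end in the direction of transcription. Each row is 1 of the 6 lists (grey control, green ICM, purple senescent), the black bar is the gene body, and orange lines are the outermost 5′ end and any internal start more than 1 kb from it. SMC1 peaks in the CDKN1A window number 1 in control, 5 in ICM and 6 in senescent cells, while CDKN1B has 2, 2 and 0.

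CDKN1A (p21; gene ID 1026; GRCh38, chr6:36676463-36687332, plus strand) had no peak of either protein within 1 kb of its outermost 5′ end in any list. Its occupied region began at the internal start 2251 bp downstream, at position 36678714. In control cells a single SMC1 peak at chr6:36678212-36680831 covered that start, with its summit 4082 bp from the outermost 5′ end and 1831 bp past the internal start. This peak was 2620 bp wide, wider than 99.2% of its list, and ranked at percentile 98.2 by total and 98.9 by highest signal. It was among the strongest SMC1 regions of control cells.

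In ICM and senescent cells the same region held 2 separate SMC1 peaks. The first had its summit 136 bp before the internal start in both lists, at chr6:36678296-36678997 in ICM (percentile 53.5 by total, 53.5 by highest signal) and chr6:36678247-36679388 in senescent cells (61.7 and 49.7). The second lay 1832 bp past that start in ICM cells (65.1 and 93.9) and 1850 bp past it in senescent cells (36.5 and 11.8). The summit near 4.1 kb was therefore common to all 3 lists, and a peak with its summit at the internal start was listed in ICM and senescent cells. The caller works on unbroken runs of coverage, so a gap in coverage parts 1 region into 2 peaks. Median SMC1 peak widths over the complete lists were 911 bp in control, 754 bp in ICM and 1005 bp in senescent cells, and the part that coverage plays in the split was not tested.

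The sequence around the internal start is shown because SMC1 peaks covered this annotated start of CDKN1A in every list. It spans 250 bases before to 50 after that start (RefSeq, GRCh38.p14, chr6:36678464-36678763, plus strand), with GC boxes (GGGCGG on either strand) in capitals. All 300 bases lay under the SMC1 peaks of all 3 lists and under the ICM CTCF peak, and no base lay under the control or senescent CTCF peak.

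CDKN1A internal start: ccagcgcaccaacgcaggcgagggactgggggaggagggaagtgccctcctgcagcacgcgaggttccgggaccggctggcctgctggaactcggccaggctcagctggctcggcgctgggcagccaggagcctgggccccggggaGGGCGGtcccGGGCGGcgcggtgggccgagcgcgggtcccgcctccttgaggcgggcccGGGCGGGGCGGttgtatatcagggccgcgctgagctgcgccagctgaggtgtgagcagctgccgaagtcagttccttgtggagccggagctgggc

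There were 4 GC boxes in it, the last pair sharing 1 base, and no other motif searched. A GC box, the letters that SP1-type factors bind, occurs in 45.0% of the 35116 promoters of the RefSeq table.

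CTCF was listed in the same part of CDKN1A in all 3 conditions. Its summits fell 4085 bp (control), 4202 bp (ICM) and 4160 bp (senescent) from the outermost 5′ end, near the control SMC1 summit. The peaks were chr6:36679359-36681227, chr6:36678017-36681232 and chr6:36679977-36681159, at percentiles 56.6, 74.3 and 46.4 by total and 70.1, 51.4 and 41.0 by highest signal. The ICM peak was the widest, at 3216 bp against 1869 and 1183 bp, and like the SMC1 peaks over the internal start it overlapped DINOL, a long noncoding RNA gene of the p53 response.

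Around the 3′ end of CDKN1A, peaks were listed in ICM and senescent cells and not in control. An SMC1 site near 10 kb had summits at 9965 bp in ICM and 10079 bp in senescent cells. The next had summits at 11448 bp in ICM (percentile 47.7 by total and 3.46 by highest signal) and 12275 bp in senescent cells (92.9 and 40.1), where the peak was 2025 bp wide. The senescent CTCF list also held a peak there, chr6:36687813-36689560, but at percentile 5.33 by total and 1.20 by highest signal. The ICM CTCF peak at chr6:36681637-36687487 was 5851 bp wide with a highest signal of 13, the smallest value in that list. By highest signal these 3′ peaks all stood in the lower part of their lists, from percentile 0.0372 to 40.1.

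Upstream of CDKN1A, ICM and senescent cells shared an SMC1 summit at 9139 bp before the 5′ end, at percentiles 9.17 and 25.2 by total signal. The nearest control SMC1 peak was 10606 bp away. Downstream, senescent cells alone had an SMC1 peak 58839 bp and a CTCF peak 48297 bp past the 5′ end, the latter over the neighbouring gene RAB44 at percentile 1.94 by total signal.

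**Figure D2:**
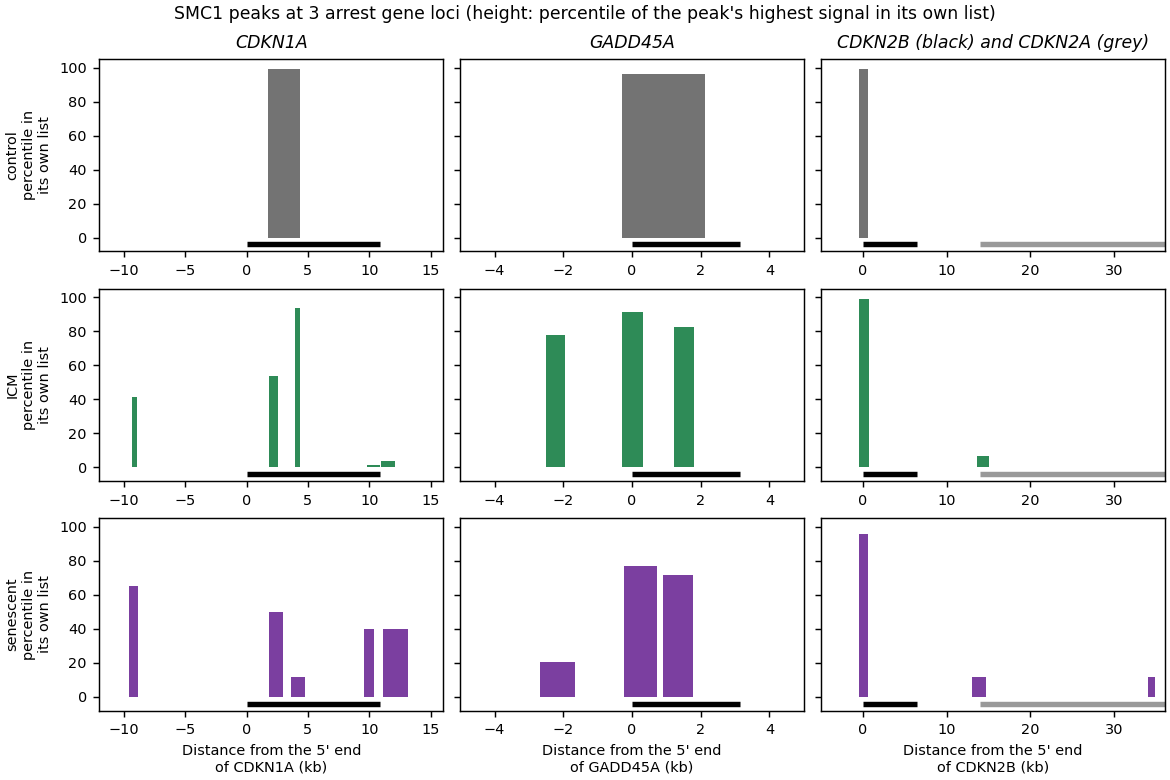
SMC1 peaks around CDKN1A, GADD45A and CDKN2B with CDKN2A, against distance in kb from the 5′ end of the gene named. Each bar spans a peak, its height is the percentile of the peak's highest signal within its own list, rows are the 3 lists, and gene bodies are the horizontal lines. At CDKN1A and GADD45A 1 wide control peak, at percentiles 98.9 and 96.3, stands where ICM and senescent cells have 2 narrower peaks.

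CDKN2A (gene ID 1029; chr9:21967752-21995324, minus strand) makes p14ARF from its outermost start and p16INK4a from an internal start 20467 bp downstream. Neither start had a peak in control cells, and neither had a CTCF peak in any list. At the ARF start, SMC1 peaks were listed in ICM cells (chr9:21994323-21995746, summit 3 bp past the start) and in senescent cells (chr9:21994565-21996288, summit 14 bp past it). Their total signal stood at percentiles 66.6 and 41.0, but their highest signal at 6.66 and 11.8, so these were broad, low peaks of 1424 and 1724 bp. The nearest control SMC1 peak lay 12376 bp away. The antisense gene CDKN2B-AS1 overlaps the same bases, and peaks carry no strand.

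At the INK4a start, senescent cells alone had an SMC1 peak, chr9:21974441-21975274, with its summit 73 bp before the start. It ranked at percentile 11.6 by total and 11.8 by highest signal, close to the bottom of its list. Control cells alone had a peak 3′ of the gene, chr9:21965432-21965935, at 11.3 and 40.1.

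Both CDKN2A promoters are printed because they gained a listed SMC1 peak in senescent cells. Capitals mark CCANNAGGG, the letters that open the CTCF core motif, at the ARF start (chr9:21995275-21995574) and GC boxes at the INK4a start (chr9:21974808-21975107). Both read along the minus strand.

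CDKN2A ARF start: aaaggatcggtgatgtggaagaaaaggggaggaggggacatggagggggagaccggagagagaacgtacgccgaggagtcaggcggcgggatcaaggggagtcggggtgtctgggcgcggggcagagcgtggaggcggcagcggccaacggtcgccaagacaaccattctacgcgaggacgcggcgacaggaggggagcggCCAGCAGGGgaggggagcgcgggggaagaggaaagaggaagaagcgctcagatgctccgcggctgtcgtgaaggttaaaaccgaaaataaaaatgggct
CDKN2A INK4a start: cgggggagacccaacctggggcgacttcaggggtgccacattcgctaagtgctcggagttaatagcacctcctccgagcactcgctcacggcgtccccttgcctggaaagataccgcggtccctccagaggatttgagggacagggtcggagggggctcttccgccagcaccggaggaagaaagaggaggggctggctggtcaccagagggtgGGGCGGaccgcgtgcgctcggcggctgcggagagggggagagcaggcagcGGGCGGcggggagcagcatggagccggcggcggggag

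The ARF promoter held 1 CTCF core start, found in 6.44% of all promoters, and no CTCF peak was listed over it. The INK4a promoter held 2 GC boxes. Senescent SMC1 peaks covered all 300 bases of both promoters, the ICM peak those of the ARF promoter alone.

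CDKN2B (p15; gene ID 1030; chr9:22002903-22009313, minus strand) was the only one of the 9 genes with a promoter peak in all 6 lists. SMC1 peaks sat 59 to 60 bp before its 5′ end, at chr9:22008665-22009768 in control, chr9:22008531-22009773 in ICM and chr9:22008701-22009763 in senescent cells. Their total signal ranked 523rd of 14883, 274th of 17809 and 1135th of 12927, which is percentile 96.5, 98.5 and 91.2. By highest signal they stood at 99.2, 99.0 and 95.8. CTCF peaks at the same promoter had summits 171 bp (control) and 81 bp (ICM) past the 5′ end and 58 bp before it (senescent). They reached percentiles 90.6, 96.3 and 81.9 by total and 81.4, 94.6 and 48.8 by highest signal. The senescent CTCF peak was thus at mid-list by highest signal, where the control and ICM peaks were in the upper part. With sites joined by 100 bp summit windows, it formed a site apart from the control and ICM peaks.

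The CDKN2B promoter is shown because it was the promoter listed for both proteins in all conditions (chr9:22009256-22009555, minus strand, from the start 8 bp inside the outermost one), with GC boxes in capitals.

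CDKN2B: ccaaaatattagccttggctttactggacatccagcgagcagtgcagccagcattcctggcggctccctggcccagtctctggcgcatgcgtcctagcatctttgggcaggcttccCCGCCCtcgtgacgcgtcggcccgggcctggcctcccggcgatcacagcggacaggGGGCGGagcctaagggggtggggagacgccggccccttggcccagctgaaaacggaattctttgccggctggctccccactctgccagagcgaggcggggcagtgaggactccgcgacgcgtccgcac

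It held 2 GC boxes, 1 on either strand, and no CTCF core start. The control and ICM CTCF summits lay outside the printed bases, so the sequence under them was not searched. All 300 bases lay under a peak in each of the 6 lists. Senescent cells also had an SMC1 peak 43400 bp upstream of CDKN2B, chr9:22052233-22052949, at percentile 19.9 by total signal, with no control peak within 42464 bp.

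CDKN1B (p27; gene ID 1027; chr12:12717368-12722369, plus strand) went the other way: SMC1 was listed at 2 places in control and ICM cells and at none in senescent cells. At the promoter, the summit lay 96 bp before the 5′ end in control (chr12:12716919-12717627) and 99 bp before it in ICM cells (chr12:12717089-12717760). These peaks were mid-ranked, at percentiles 40.7 and 30.2 by total and 44.6 and 22.3 by highest signal. The nearest senescent SMC1 peak was 102016 bp away. Both promoter peaks also overlapped GPR19, a neighbouring receptor gene with a start within 1 kb of both summits. They therefore cannot be assigned to CDKN1B alone.

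A second SMC1 site lay 12.6 kb upstream, also over GPR19, and was narrow and sharp. It measured 356 bp in control and 369 bp in ICM cells, narrower than nearly all of either list (width percentiles 0.386 and 2.50), with a highest signal at percentiles 98.8 and 99.0. Senescent cells had no SMC1 peak there but did have a CTCF peak, chr12:12704549-12705092, with its summit at 12601 bp before the 5′ end and its highest signal at percentile 79.1. No CTCF peak was listed at this place in control or ICM cells. Its total signal was at percentile 29.8, and it was absent from the senescent list once that list was cut to the length of the control list by total signal, but remained when it was cut by highest signal.

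The CDKN1B promoter (chr12:12717118-12717417, plus strand) is printed because its SMC1 peak was missing in senescent cells, with the GC box and CCAAT boxes (CCAAT or ATTGG, the letters bound by NF-Y) in capitals.

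CDKN1B: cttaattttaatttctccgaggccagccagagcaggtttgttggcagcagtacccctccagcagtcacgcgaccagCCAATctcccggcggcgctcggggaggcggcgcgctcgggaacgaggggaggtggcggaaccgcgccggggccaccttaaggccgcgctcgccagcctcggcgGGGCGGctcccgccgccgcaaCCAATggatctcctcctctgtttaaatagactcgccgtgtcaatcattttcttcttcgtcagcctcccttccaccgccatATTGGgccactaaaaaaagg

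It held 3 CCAAT boxes, 2 of them before the start and 1 after it on the opposite strand, and 1 GC box. At least 1 CCAAT box occurs in 34.6% of all promoters.

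MDM2 (gene ID 4193; chr12:68808172-68850686, plus strand) had its peaks at the promoter alone, and none of them in control cells. CTCF was listed there in ICM (chr12:68807372-68809520, summit 45 bp past the 5′ end) and in senescent cells (chr12:68807248-68808660, summit 13 bp before it). SMC1 was listed in senescent cells, chr12:68807272-68808975, with its summit 303 bp past the 5′ end. The CTCF peaks were at percentiles 43.9 and 4.59 by total signal, and by highest signal they ranked 5998th of 6728 and 8172nd of 8577. The SMC1 peak was at 62.0 by total but 5.36 by highest signal, and it was 1704 bp wide. All 3 were therefore low over their width. The nearest control peaks were 549755 bp away for CTCF and 60403 bp for SMC1.

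RefSeq gives MDM2 a second cluster of starts 845 and 852 bp downstream of the first. The promoters of the first start (chr12:68807922-68808221) and of the start at 845 bp (chr12:68808767-68809066) are shown because the ICM CTCF peak covered both in full. Capitals mark the E2F core (TTTGGCGC or its complement GCGCCAAA; TTTCCCGC was searched as well), CCAAT boxes and GC boxes.

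MDM2 first start: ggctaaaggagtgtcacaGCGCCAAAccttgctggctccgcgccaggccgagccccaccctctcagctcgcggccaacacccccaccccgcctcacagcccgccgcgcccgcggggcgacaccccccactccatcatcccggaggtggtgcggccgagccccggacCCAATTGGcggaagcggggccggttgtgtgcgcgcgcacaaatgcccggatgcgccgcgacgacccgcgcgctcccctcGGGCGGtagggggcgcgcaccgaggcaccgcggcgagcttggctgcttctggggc
MDM2 start at 845 bp: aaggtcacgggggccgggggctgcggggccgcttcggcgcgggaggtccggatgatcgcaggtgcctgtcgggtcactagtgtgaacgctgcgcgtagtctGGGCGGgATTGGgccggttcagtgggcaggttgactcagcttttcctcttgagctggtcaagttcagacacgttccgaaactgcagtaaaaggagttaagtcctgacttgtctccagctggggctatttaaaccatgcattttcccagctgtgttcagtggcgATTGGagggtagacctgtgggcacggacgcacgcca

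The first promoter held the E2F core once, a match present in 2.27% of all promoters, together with 1 GC box and 2 CCAAT boxes that overlap on opposite strands. The other held 1 GC box and 2 CCAAT boxes. The senescent CTCF peak covered 300 bases of the first and 0 of the other, and the senescent SMC1 peak 300 and 209 bases.

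RB1 (gene ID 5925; chr13:48303751-48481890, plus strand) encodes the pocket protein that these kinase inhibitors keep active. It had 1 peak in all 6 lists: an SMC1 peak at the promoter in control cells, chr13:48303356-48304186, with its summit 121 bp before the 5′ end. It ranked at percentile 10.5 by total and 8.40 by highest signal, so it stood just inside the control list. The divergent noncoding gene RB1-DT overlaps it. The internal start 172699 bp downstream had no peak, and the nearest senescent SMC1 peak was 464842 bp away. RB1 also has the longest window, 278 kb.

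CCND1 (cyclin D1; gene ID 595; chr11:69641156-69654474, plus strand) kept an internal site and lost its promoter peak from the senescent list. At 3278 to 3338 bp inside the gene CTCF was listed in all 3 conditions, at percentiles 41.8 (control), 85.6 (ICM) and 53.7 (senescent) by total and 17.2, 68.1 and 16.3 by highest signal. SMC1 peaks with summits at 3285, 3242 and 3282 bp lay on the same site, at 90.0, 86.0 and 71.3 by total and 73.7, 86.3 and 76.9 by highest signal. At the promoter, SMC1 was listed in control (chr11:69641047-69641639, percentile 64.3 by total and 85.3 by highest signal) and in ICM cells (chr11:69641047-69641492, 40.1 and 71.7). The summits were 9 and 13 bp before the 5′ end. The nearest senescent SMC1 peak was 1570 bp from the promoter site.

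The CCND1 promoter was flanked by SMC1 peaks that were listed in senescent cells. A summit 1998 bp before the 5′ end was found at the same base in ICM and senescent cells, at percentiles 40.7 and 7.54 by total signal. Summits 4415 bp (control) and 4602 bp (senescent) before it belonged to a further site. Inside the gene, senescent cells alone had a peak at 6177 bp, at 17.7 by total and 1.67 by highest signal. Past the 3′ end, ICM and senescent cells shared a site at 14597 and 14413 bp, again with highest signal at the bottom of the lists (3.46 and 1.67). Near the start of LTO1, a neighbouring gene, SMC1 summits lay at 34226 bp in control, 33355 bp in ICM and 34240 bp in senescent cells. CTCF was listed there in ICM cells alone, at 34160 bp.

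CCND2 (cyclin D2; gene ID 894; chr12:4273762-4305353, plus strand) had no peak at its promoter or in its gene body in any list. Its 4 listed peaks were all downstream. Senescent CTCF (summit 34257 bp from the 5′ end, percentile 36.7 by total signal) and ICM SMC1 (34295 bp, 26.3) overlapped each other, in different conditions. SMC1 summits at 47360 bp in control and 47358 bp in senescent cells fell at the start of TIGAR, a p53 target in sugar metabolism, at percentiles 60.0 and 53.5 by total signal.

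GADD45A (gene ID 1647; chr1:67685201-67688334, plus strand), a stress-induced inhibitor of CDK1 activity, had SMC1 at its promoter in all 3 lists and no CTCF. In control cells 1 peak, chr1:67684907-67687313, covered the promoter and most of the gene, with its summit 27 bp before the 5′ end. It was 2407 bp wide, wider than 98.8% of its list, and ranked at percentile 98.9 by total and 96.3 by highest signal. In ICM cells the first peak began at the same base and had its summit 28 bp before the 5′ end (84.5 and 91.4), and a second had its summit at 1637 bp (74.5 and 82.6). In senescent cells the corresponding summits were at 37 bp (71.6 and 76.9) and 1626 bp (20.7 and 71.5). As at CDKN1A, 1 wide control region was listed as 2 peaks in ICM and senescent cells, which adds to their peak counts. How often other wide control peaks were parted in this way was not counted.

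ICM and senescent cells also had an SMC1 peak 2.2 kb upstream of GADD45A that control cells lacked, with summits 2235 and 2268 bp before the 5′ end, at percentiles 52.9 and 49.6 by total signal and 77.9 and 20.4 by highest signal. The control promoter peak began 1375 bp from this site. Farther off, the senescent list had a peak 34912 bp and the ICM list one 32161 bp upstream, and all 3 lists had a peak near 51 kb downstream, inside GNG12.

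At the level of promoters, SMC1 was listed within 1 kb of the outermost 5′ end of 5 of the 9 genes in control cells (CDKN2B, CDKN1B, RB1, CCND1 and GADD45A), 5 in ICM (CDKN2A, CDKN2B, CDKN1B, CCND1 and GADD45A) and 4 in senescent cells (CDKN2A, CDKN2B, MDM2 and GADD45A). Over the 19671 protein-coding genes with a known strand the shares were 31.6%, 27.6% and 22.3%. With every annotated start counted, the members numbered 5, 6 and 5, beside 34.1%, 30.0% and 24.5% of all genes. The addition was CDKN1A in ICM and senescent cells. The control SMC1 peak also covered this CDKN1A start, but its summit lay 1831 bp past it, outside the 1 kb limit. CDKN1B, RB1 and CCND1 had an SMC1 promoter peak in control and not in senescent cells, as 11.9% of all genes did, and CDKN2A and MDM2 had the reverse, as 2.57% did. The RB1 peak was in neither control list cut to equal length, and with summits up to 2 kb from the 5′ end counted CCND1 had a senescent promoter peak, so that 5 genes had one in control and 5 in senescent cells.

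CTCF promoter peaks were fewer, at 1 (CDKN2B), 2 and 2 (CDKN2B and MDM2) of the 9 genes in control, ICM and senescent cells. Of all genes, 8.76%, 12.6% and 9.55% had one, or 9.87%, 14.1% and 10.6% with every annotated start counted, where the members' counts were again 1, 2 and 2. MDM2 had one in senescent and not in control cells (2.49% of all genes), and 0 of the 9 genes had the reverse (1.71%). The senescent count fell to 1 when the lists were cut to equal length by total or by highest signal, since the MDM2 peak was in the lowest 10% of its list.

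**Figure D3:**
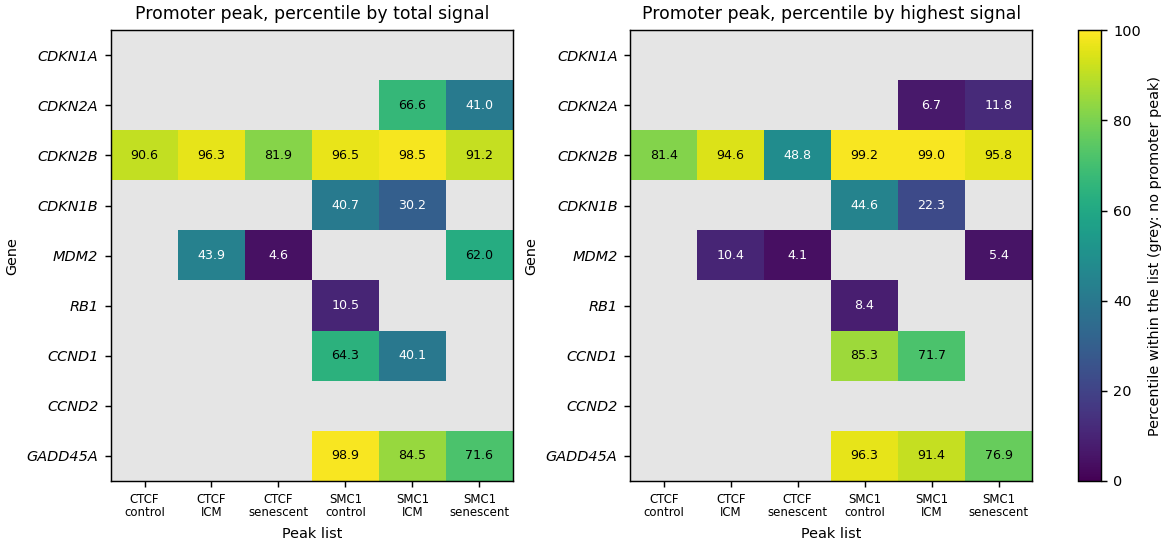
Percentile, within its own list, of the promoter peak of each gene (summit within 1 kb of the outermost 5′ end) by total signal on the left and highest signal on the right, with genes as rows and the 6 lists as columns. Grey cells have no promoter peak. CDKN2B is filled in all 6 columns, CDKN1A and CCND2 in none, and the new senescent SMC1 peaks at CDKN2A and MDM2 are at 41.0 and 62.0 on the left but 11.8 and 5.4 on the right.

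Peaks of the 3 lists of an antibody that overlapped by at least 1 bp were joined into sites. The windows held 29 SMC1 sites, out of 22580 in all. Of these, 13 were listed in senescent and not in control cells, where 16.4% of all SMC1 sites were, and 5 in control and not in senescent cells, where 24.9% were. ICM and senescent cells, without control, shared 7 of the 29 (6.52% of all sites), and 5 of the 29 were in all 3 lists (36.5%). The complete SMC1 lists leaned towards sites missing in senescence, and the site counts of these windows leaned the other way. Most of the 13 sites lay at a few loci, with several each at CDKN1A, CDKN2A with CDKN2B, CCND1 and GADD45A. CDKN1B and RB1 had only sites of the reverse kind, and CCND2 had none of either kind. By gene the counts were close, at 6 against 5, with CDKN2A, CDKN2B and CCND1 in both. The senescent SMC1 list is the shortest, so cutting all lists to its length took peaks from control and ICM alone. That could hardly weaken the lean of the windows. After this cut, the 13 against 5 became 13 against 3 by total and 14 against 4 by highest signal. With windows of 100 kb a side they became 14 against 12, so the lean nearly vanished.

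Counted by gene, an SMC1 site listed in senescent and not in control cells was in the window of 6 genes (CDKN1A, CDKN2A, CDKN2B, MDM2, CCND1 and GADD45A), beside 29.3% of all genes. The reverse was in the window of 5 (CDKN2A, CDKN2B, CDKN1B, RB1 and CCND1), beside 41.0%. The 5 control sites were the promoter peaks of CDKN1B, RB1 and CCND1, the site upstream of CDKN1B over GPR19 and the peak 3′ of CDKN2A.

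For CTCF the windows held 10 of 9720 sites. There were 5 in senescent and not in control cells, beside 43.0% of all CTCF sites, and 0 in control and not in senescent cells, beside 4.29%. In all 3 lists there were 3 (41.4% of all sites), at CDKN1A, CDKN2B and CCND1, and 1 was in ICM and senescent cells without control (14.7%), at MDM2. By gene, the windows of CDKN1A, CDKN1B, MDM2 and CCND2 held a site listed in senescent and not in control cells, beside 36.8% of all genes, and 0 genes held the reverse, beside 5.72%. These CTCF counts were near the background, and the 5 fell to 0 when lists were cut to equal length by total signal and to 1 by highest signal.

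**Figure D4:**
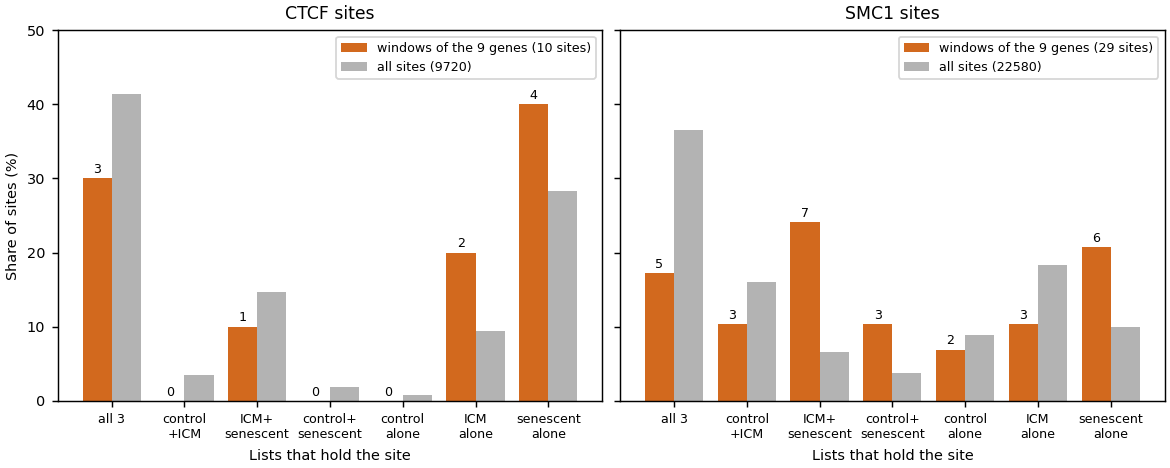
Share of sites (percent) in each combination of the 3 lists, for the windows of the 9 genes (orange, with the number of sites above the bar) and for all sites (grey), CTCF left and SMC1 right. Of 29 SMC1 sites, 7 are in ICM and senescent cells and 6 in senescent cells alone, and 5 are in all 3 lists.

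The peaks that senescent cells added were weak within their list. The 13 senescent SMC1 peaks missing in control had a median percentile of 25.0 by total and 20.4 by highest signal, ranging from 7.54 to 92.9 by total. All 3710 such peaks of the senescent list had medians of 27.8 and 30.2. At the sites common to all 3 lists, the median total percentile was 96.5 in control (5 peaks), 74.5 in ICM (7 peaks) and 61.7 in senescent cells (7 peaks), beside 67.6, 72.7 and 63.3 for all such peaks. The 5 control peaks missing in senescent cells had medians of 40.7 and 44.6. The 16 SMC1 sites missing in control lay at a median of 10345 bp from the nearest control peak, with 4 of them within 5 kb.

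**Figure D5:**
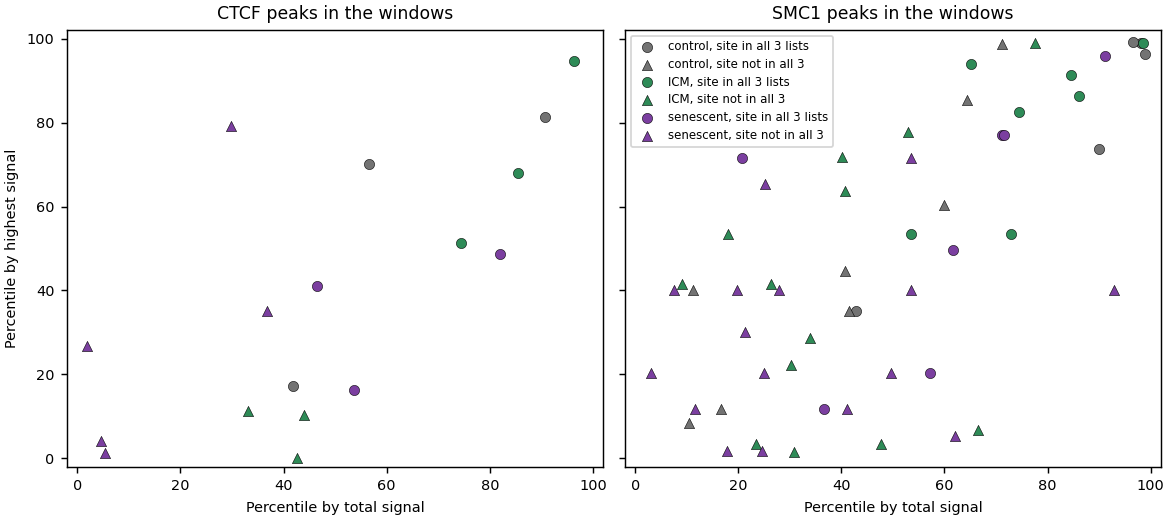
Percentile by total signal (x) against percentile by highest signal (y) of every peak in the windows, each within its own list, CTCF left and SMC1 right. Circles are peaks of sites found in all 3 lists and triangles the rest, coloured by condition. Control SMC1 circles gather at the upper right with a median total percentile of 96.5, and most senescent triangles lie in the lower left.

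Most CTCF peaks of the windows overlapped SMC1 peaks, but most SMC1 peaks had no CTCF beside them. An SMC1 peak of the same condition overlapped 3 of 3 CTCF peaks of the windows in control, 5 of 6 in ICM and 5 of 8 in senescent cells, beside 75.8%, 72.6% and 50.2% of the complete CTCF lists. In the other direction, 3 of 13, 7 of 20 and 5 of 23 SMC1 peaks met a CTCF peak (25.2%, 30.2% and 33.9% of the complete lists). The SMC1 peaks at GADD45A and CDKN1B were among those without listed CTCF in the same condition.

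Other genes of the same pathways were read from lists of 25 further p53 genes and 20 further RB and CDK genes, all of them found in the gene table. SMC1 promoter peaks were listed at 14 of the 25 p53 genes in control, 13 in ICM and 14 in senescent cells, beside 31.6%, 27.6% and 22.3% of all genes. There were 9 in all 3 lists, among them the kinase gene ATM and the phosphatase gene PPM1D. The share of all genes with one in all 3 lists was not counted, so the 9 cannot be placed against it. FDXR and XPC had one in control and not in senescent cells (11.9% of all genes), and CCNG1 and GADD45B in senescent and not in control cells (2.57%). CTCF was listed at 8, 5 and 5 of these promoters (8.76%, 12.6% and 9.55% of all genes), with GDF15, PPM1D and SESN1 in control and not in senescent cells (1.71%) and 0 genes in the reverse (2.49%). Of the 20 RB and CDK genes, 9, 7 and 6 had an SMC1 promoter peak, beside the same shares of all genes. The phosphatase gene CDC25A, the RB kinase gene CDK6 and the inhibitor gene CDKN1C had it in control and not in senescent cells. Over all genes the share was 11.9%. The reverse was seen at 0 of the 20 genes, beside 2.57% of all genes. CDKN2D, which encodes the inhibitor p19, was the single gene of this list with CTCF at its promoter, in all 3 conditions. Of all genes, 8.76%, 12.6% and 9.55% had CTCF at the promoter in control, ICM and senescent cells.

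For the 3 genes with promoter peaks in the most lists, the genes most alike were sought among those with peaks in exactly the same lists, by the mean difference in total-signal percentile over those lists. CDKN2B shared its 6 lists with 886 genes and was nearest to DNAAF2 (2.40 percentile points) and DKK1 (2.41). GADD45A shared its 3 SMC1 lists with 1717 genes and was nearest to BHLHE40 (2.60) and IRF2BP2 (2.77). The pattern of MDM2, CTCF in ICM and senescent cells with SMC1 in senescent cells alone, was shared by 11 genes, with PLXNA2 (20.0) and SOX15 (20.7) nearest and both far off. The likeness rests on 6 or 3 libraries.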

How the data were processed

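CUT&Tag for CTCF and SMC1 gave 1 library per antibody and condition (6 libraries), grouped by their labels. The submitters' processing notes name GRCh38, Bowtie2 2.3.4.1, Picard 2.20.7, deepTools and SEACR 1.3, and the authors called stringent peaks per library, keeping the top 1%. The deposited lists hold the total signal and the highest signal of each peak as whole numbers, and the methods describe calibration of human reads by E. coli reads without saying whether these values carry it. All 3 CTCF lists were slightly longer than the counts the study gives after its motif filter, so they differ from that filtered set. No source states whether a motif filter was applied to them. The methods give a minimum number of reads per sample but not that of each library, so depth and counting error are unknown.

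Peaks overlapping a gene body extended by 50 kb were taken (Python 3.11.15, pandas 2.3.3). Gene bodies came from RefSeq, GRCh38.p14, internal starts and sequences from the RefSeq promoter table, which matched 6 of the 9 genes, and the strand of the other 3 from GENCODE v44 by symbol. Exon and intron borders were not used here. The summit is the midpoint of the stretch of highest signal. A promoter peak has its summit within 1 kb of the outermost 5′ end. Sites join peaks overlapping by 1 bp. Percentiles are mean ranks within a list. Joining was checked on simulated sites. No test was run, since each group is 1 library. All 9 genes are named, with every peak at a promoter or gene body, the peak of highest total signal per window, and every site in control or senescent cells and not the other. The members and gene lists were chosen with earlier results of these data known. Alternatives were the window, summit distance, site rule, equal-length lists and dropping the lowest 10% of each list.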

Additional observations from a re-analysis of the deposited data

Results flagged for a closer look

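The count of the 9 genes with a promoter peak moved in opposite directions for the 2 proteins, senescent minus control. For CTCF it was 1, from the added peak at MDM2. For SMC1 it was -1, with CDKN1B, RB1 and CCND1 leaving and CDKN2A and MDM2 entering. Over all genes the shares went from 8.76% to 9.55% for CTCF and from 31.6% to 22.3% for SMC1. The opposite directions were lost under several settings: with lists cut to equal length by total or by highest signal the counts were 1 and 1 for CTCF and 4 and 4 for SMC1, without the lowest 10% of each list CTCF had 1 and 1, and with summits up to 2 kb counted SMC1 had 5 and 5. The difference between the proteins was not tested, as each group is 1 library.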

How the results depend on the processing

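Of 108 values recomputed under other settings, 89 stayed within 1.5 times the reported count and 19 moved. The 13 SMC1 sites in senescent and not in control cells ranged from 10 to 16. With windows of 10 kb a side, CTCF sites in senescent and not in control cells went from 5 to 3. With 100 kb they came to 12, CTCF sites in all 3 lists to 5 (from 3), SMC1 sites in all 3 lists to 10 (from 5) and SMC1 sites in control and not in senescent cells to 12 (from 5). With sites joined by 100 bp summit windows, 1 CTCF site, at the CDKN2B promoter, was in control and not in senescent cells, against 0. With lists cut to equal length by total signal, CTCF sites in senescent and not in control cells came to 0, SMC1 sites in control and not in senescent cells to 3, senescent CTCF promoters to 1 (from 2) and genes with a senescent CTCF peak in the window to 4 (from 7). Cut by highest signal, CTCF sites in senescent and not in control cells came to 1, the reverse to 2, CTCF sites in all 3 lists to 1, CTCF promoters to 1 in ICM and 1 in senescent cells (from 2 and 2), SMC1 promoters in ICM to 3 (from 5) and genes with a senescent CTCF peak in the window to 3. Without the lowest 10% of each list by total signal, CTCF sites in senescent and not in control cells came to 2 and senescent CTCF promoters to 1. The cause was not tested beyond the shorter lists that these settings make. The alternatives for the count of genes with a peak in the window were chosen after seeing the data. No paired analysis was possible because the result comes from no test and each group is 1 library.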

Other observations

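Peaks at the starts of neighbouring genes made up a further part of the windows. A start of GPR19 lay within 1 kb of the CDKN1B promoter summits of SMC1 in control and ICM cells. The start of LTO1, downstream of CCND1, had SMC1 in all 3 lists, in ICM cells at a summit under 1 kb from the others but without overlap, 18 bp from the control peak. The start of TIGAR had SMC1 in control and senescent cells and not in ICM cells, whose nearest SMC1 peak was 12338 bp away. The windows of MDM2 and GADD45A hold the start of 0 other protein-coding genes, so every peak in them lay away from any other such start.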
